A study of Homo sapiens with 8 samples.

Results

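The mRNAs of 10 microtubule-associated proteins were followed across 8 RNA-seq libraries of A673/TR/shFEZF1 cells: MAP1A, MAP1B, MAP2, MAP4, MAPT, MAP7, MAP7D1, MAP7D2, MAP7D3 and DCX, out of 34792 genes with a matched transcript. MAP7D2 was chosen by its difference between doxycycline and control in these same libraries, and the other 9 genes were taken as its closest relatives and the best known proteins of the class. Every value of the doxycycline contrast is therefore a description of these genes. Where a count of them past the threshold is given, it stands beside the share of all genes and supports nothing. A673 is an established Ewing sarcoma cell line that carries the EWSR1-FLI1 fusion. A673/TR cells are a clone of it that makes the tetracycline repressor, and A673/TR/shFEZF1 cells also carry a doxycycline-inducible shRNA against FEZF1, a zinc finger transcription factor of the developing forebrain.

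The control group held 4 cultures kept without doxycycline, and the dox group held 4 cultures given 1 µg/mL doxycycline for 72 h. Each group had 1 culture of the polyclonal population (called bulk in the labels) and 1 each of clones 3, 5 and 6, so that the cultures pair by origin. All 8 cultures carry the repressor and the shRNA construct and come from the same parental clone. Doxycycline was given to each dox culture and to no control culture, and no culture had doxycycline without the FEZF1 shRNA, so the drug and the shRNA cannot be told apart here. The question of the design is which mRNAs differ when FEZF1 is lowered in Ewing sarcoma cells.

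Microtubules are hollow polymers of alpha and beta tubulin, and microtubule-associated proteins bind along their wall, where they set stability, bundling and the access of motor proteins. MAP1A, MAP1B, MAP2, tau (encoded by MAPT) and doublecortin (DCX) are best known from neurons, in which MAP2 lies in dendrites and tau mostly in axons. MAP4 is the broadly expressed relative of MAP2 and tau. The MAP7 family (MAP7, MAP7D1, MAP7D2 and MAP7D3) binds microtubules and recruits the motor kinesin-1, and MAP7D2 is a brain-enriched member of it that is found in the proximal axon.

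Depth was between 26719886 and 42422421 reads assigned to transcripts per library, of which 89.9% to 91.1% fell on transcripts that could be given a gene symbol. FEZF1 was lower in the dox culture of all 4 pairs (mean 87.1 ± 17.6 CPM in control and 50.2 ± 12.4 CPM in dox, SD, n = 4), with a log2 fold change of -0.81 (SE 0.07, adjusted p = 0.00594, edgeR quasi-likelihood test with origin as a block). A level in CPM is the read count of a gene scaled to the reads, in its library, of the genes that passed a filter on low counts, with TMM factors. All 10 Ewing sarcoma markers examined were above 1 CPM in every library, with a summed level of 4082 to 5717 CPM in control and 4088 to 5852 CPM in dox. NR0B1 and NKX2-2 rose, and LIPI and GLI1 fell (log2 fold changes of 0.67, 0.30, -0.30 and -0.77), and their part in the results was not tested. Of 10 markers of mature neurons, 5 were below 1 CPM in every library (RBFOX3, SLC17A6, GAD1, GAD2 and SLC32A1), the summed level of the 10 was 114 to 146 CPM in control and 119 to 161 CPM in dox, and 0 of the 5 that could be tested passed (1 at an unadjusted p under 0.05, and 0 in DESeq2 with or without the block). All 6 glia markers were below 1 CPM throughout, as were PTPRC, CD3E, PECAM1 and VWF. The other 2 blood and endothelium markers were detected, CD68 at 5.82 ± 3.41 CPM in control and 6.65 ± 2.99 CPM in dox and HBB at 7.28 ± 2.36 CPM and 8.31 ± 2.20 CPM (SD, n = 4), and the list of 6 summed to 9.57 to 21.8 CPM in control and 10.9 to 21.5 CPM in dox.

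Of the 10 genes, 8 passed the filter on low counts and 2, MAP7 and DCX, did not. In the fit across all 15993 genes, 4 of these 8 had an adjusted p under 0.05 for doxycycline (MAP1A, MAP1B, MAPT and MAP7D2), each with a higher level in dox, against 7.63% of all genes called and 3.73% called higher. Since the contrast was used to choose the genes, nothing is read from that count. The level was higher in dox in 4 of 4 pairs for 6 of the 10 genes (17.3% of all genes tested), and the control and dox groups did not overlap for 1 of them, MAP7D2 (4.94% of all genes tested). The median log2 fold change of the 8 was 0.31, beside 0.0042 for all genes. These are bulk RNA measurements, so more cells with a transcript and more transcript per cell cannot be told apart.

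**Figure D1:**
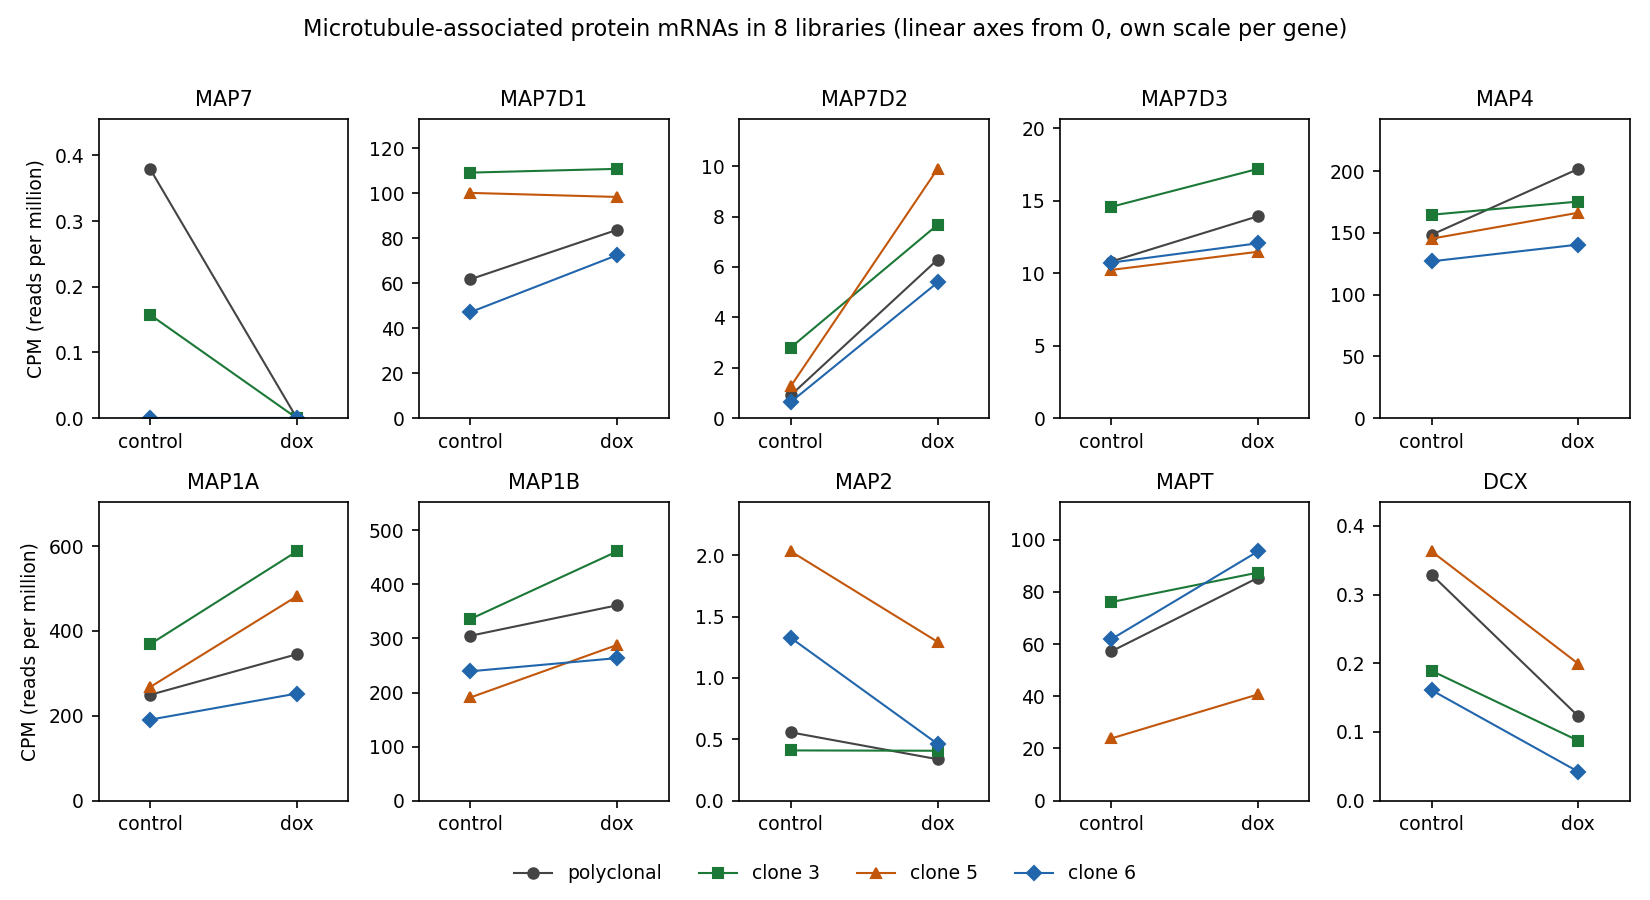
Level of each of the 10 mRNAs in CPM (vertical axis, linear from 0, with its own scale per gene) in the control and dox culture of each origin, joined by a line. The 4 dox cultures of MAP7D2 lie between 5.38 and 9.89 CPM, above the 4 control cultures at 0.643 to 2.80 CPM, while the groups of the other 9 genes overlap.

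MAP7D2 had the largest fitted fold change of the 8 genes that passed the filter. Its level in control was 0.911 CPM in the polyclonal population, 2.80 CPM in clone 3, 1.27 CPM in clone 5 and 0.643 CPM in clone 6. In dox it was 6.29, 7.67, 9.89 and 5.38 CPM in the same order. The lowest dox culture, clone 6, was thus above the highest control culture, clone 3. The group means were 1.41 ± 0.966 CPM in control and 7.31 ± 1.96 CPM in dox (SD, n = 4), and the fitted log2 fold change was 2.51 (SE 0.29), a 5.71-fold difference.

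The size of that difference was not the same in each pair. The dox culture was 6.79-fold above its control in the polyclonal population, 7.75-fold in clone 5 and 8.11-fold in clone 6, but 2.72-fold in clone 3. Here and below, a fold within a pair was taken after 0.5 reads were added to each count. Clone 3 differed from the others in its control culture, which had the highest control level, and not in its dox culture, which was second to that of clone 5. Leaving out each origin in turn gave log2 fold changes from 2.35 without clone 5 to 2.92 without clone 3. The levels rest on few reads, 36, 89, 35 and 16 in the control cultures and 205, 264, 298 and 128 in the dox cultures, again in the order polyclonal, clones 3, 5 and 6. The matched transcripts held 45.7% of the mean that the authors deposited for MAP7D2, so these values describe less than the whole gene.

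In the RefSeq annotation, MAP7D2 lies on the minus strand of chromosome X and has 2 start windows in the table used, of which the upstream one is rich in CG. The bases around that start (250 before and 50 after, GRCh38.p14, chrX:20116858-20117157, minus strand) are shown for the gene whose level stood apart, followed by the window of MAP7D3 (chrX:136256433-136256732, minus strand), its relative on the same chromosome, whose level differed far less. Capitals mark CACGTG, a palindrome that reads the same on both strands and was picked after the sequence had been read.
MAP7D2: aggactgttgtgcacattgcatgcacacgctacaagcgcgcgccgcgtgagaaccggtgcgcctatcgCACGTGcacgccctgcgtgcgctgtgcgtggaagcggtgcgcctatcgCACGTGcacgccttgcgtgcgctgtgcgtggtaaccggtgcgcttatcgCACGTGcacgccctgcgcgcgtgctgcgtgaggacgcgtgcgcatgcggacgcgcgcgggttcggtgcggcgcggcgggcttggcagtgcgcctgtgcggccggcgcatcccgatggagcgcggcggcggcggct
MAP7D3: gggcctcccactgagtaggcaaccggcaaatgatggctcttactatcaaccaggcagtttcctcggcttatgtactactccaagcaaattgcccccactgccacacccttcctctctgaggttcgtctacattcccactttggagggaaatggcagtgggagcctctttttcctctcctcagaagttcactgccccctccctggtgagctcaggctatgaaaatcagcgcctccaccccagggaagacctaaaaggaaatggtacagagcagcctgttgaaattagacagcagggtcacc

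The MAP7D2 window shown held CACGTG 3 times, within a repeated stretch of which 26 bases occur in 2 copies without a difference (cggtgcgcctatcgcacgtgcacgcc). Among 35116 windows of this kind, 7.26% held CACGTG at least once and 0.0940% held it 3 times or more. The window had 54 CG dinucleotides, more than 99.5% of all windows, whose median was 14, while the MAP7D3 window had 4. Windows were found for 9 of the 10 genes (20 in all, none for MAPT), and the other 19 had 1 to 46 CG dinucleotides and no CACGTG. The second window of MAP7D2 is among these 19 and had 33 CG dinucleotides. These letters describe the sequence and say nothing of what binds there in these cells.

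The matched reads of MAP7D2 were divided by Salmon mainly between 2 of its 20 matched transcripts. NM_152780.4, a curated transcript, had 67.0% of these matched reads, and XM_024452362.1, a predicted one, had 28.3%. The matched transcripts held 45.7% of the deposited mean, so these are not shares of the whole gene. NM_152780.4 had 10.4 estimated reads in the polyclonal control, 65.8 in the clone 3 control and 0 in the controls of clones 5 and 6. In the dox cultures it had 132 in the polyclonal population, 200 in clone 3, 222 in clone 5 and 87.9 in clone 6. The dox cultures of this transcript were all above all control cultures, and in 2 of the 4 controls no read at all was assigned to it. Its log2 fold change was 5.31 with a wide SE of 2.05, and it was not called. How many of all transcripts are separated in this way was not counted.

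XM_024452362.1 had 25.8, 23.4, 34.7 and 16.0 estimated reads in the control cultures of the polyclonal population and clones 3, 5 and 6, and 41.7, 64.1, 67.1 and 30.3 in dox. In CPM scaled over the transcripts that passed the filter, its dox levels (1.17 to 1.98) also lay just above its control levels (0.596 to 1.13). Its log2 fold change was 1.00 (SE 0.38), and it was not called. The share of all transcripts separated in this way was not counted, so nothing is read from it. The share of NM_152780.4 in the gene's matched reads was 28.7% in control and 64.3% in dox in the polyclonal population. It was 73.8% and 75.7% in clone 3, 0% and 74.5% in clone 5, and 0% and 69.0% in clone 6. In clone 3, whose control level was highest, the matched reads of the control culture thus already had the split seen in the dox cultures. Counted on curated transcripts alone, the log2 fold change of MAP7D2 was 4.46, but the gene was then not called. How reads are split between transcripts of a gene is an estimate whose error is in none of the files used here.

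MAP7D1 and MAP7D3 differed much less in fold change. MAP7D1, which also recruits kinesin-1, was at 61.8, 109, 100 and 47.2 CPM in the controls of the polyclonal population and clones 3, 5 and 6, and at 83.8, 111, 98.4 and 72.6 CPM in dox. It was higher in dox by 1.36-fold in the polyclonal population and by 1.54-fold in clone 6, and nearly level in clones 3 and 5 (1.02-fold and 0.982-fold). Its log2 fold change was 0.26 (SE 0.11). The matched transcripts held 61.4% of the mean deposited for this gene.

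MAP7D3 was at 10.8, 14.6, 10.2 and 10.7 CPM in control and 13.9, 17.2, 11.5 and 12.1 CPM in dox. It was higher in dox in 4 of 4 pairs, from 1.12-fold in clone 5 to 1.29-fold in the polyclonal population, with a log2 fold change of 0.24 (SE 0.09), and the groups overlapped because clone 3 was above the rest in both. Its matched transcripts held 40.1% of the deposited mean. MAP7, the founding member, had 15 reads in the polyclonal control, 5 in the clone 3 control and 0 in the other 6 libraries, where 0 allows a level of up to 0.0876 to 0.123 CPM (3 reads, counting error only). Its matched transcripts held only 14.2% of the deposited mean, so a level for the whole gene is not given by these reads.

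Per length, MAP7D1 made up most of the family in every library. In TPM (a share of transcripts corrected for their length), MAP7D1 had 84.5% to 92.2% of the family's sum, and MAP7D3 had 6.92% to 14.2%. MAP7D2 had 0.998% in the polyclonal control, 1.86% in clone 3, 0.866% in clone 5 and 0.866% in clone 6, and 5.16%, 4.78%, 6.99% and 5.08% in the dox cultures. It thus remained a minor member in dox, below MAP7D3 in each library, with the reservation that different parts of each gene's reads could be matched.

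MAP1A and MAP1B, long microtubule-binding proteins of growing and mature neurites, were the most abundant of the 10 genes in CPM. MAP1A was at 249, 369, 268 and 191 CPM in the controls of the polyclonal population and clones 3, 5 and 6, and at 345, 587, 482 and 252 CPM in dox. The dox culture was higher in each pair, by 1.32-fold in clone 6 to 1.80-fold in clone 5, and the groups overlapped because the origins started from different levels. Its log2 fold change was 0.60 (SE 0.08), and the means were 269 ± 74.0 CPM in control and 417 ± 148 CPM in dox (SD, n = 4). All its reads fell on 1 transcript, NM_002373.6.

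MAP1B was at 305, 336, 191 and 239 CPM in control and 361, 461, 288 and 264 CPM in dox. It was higher in each pair, by 1.10-fold to 1.51-fold, with a log2 fold change of 0.36 (SE 0.08). Of its reads, 92.2% fell on NM_005909.5 and 7.80% on NM_001324255.2. The split was uneven, since NM_001324255.2 had 2856 reads in the clone 3 dox culture, 0 in the clone 6 control and 89.9 to 947 in the other 6 libraries. More than 99% of the deposited means of MAP1A (99.2%) and MAP1B (99.1%) were matched.

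MAPT, which encodes tau, was at 57.2 CPM in the polyclonal control, 76.1 in clone 3, 23.8 in clone 5 and 61.9 in clone 6, and at 85.4, 87.4, 40.7 and 95.6 CPM in dox. The dox culture was higher in each pair, by 1.15-fold in clone 3 to 1.71-fold in clone 5, and the dox culture of clone 5 was still below all 3 other controls. The log2 fold change was 0.54 (SE 0.09), and the means were 54.8 ± 22.1 CPM and 77.3 ± 24.8 CPM (SD, n = 4).

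Of the 16 matched MAPT transcripts, 11 had reads and 3 held most of them. NM_016841.5, with 44.7% of the gene's reads, had 975, 1061, 331 and 893 reads in control and 1270, 1265, 465 and 968 reads in dox. NM_001203251.2, with 14.6%, had 314 reads in the polyclonal control, 191 in clone 3, 42.8 in clone 5 and 0 in clone 6, and 566, 511, 233 and 498 reads in dox. Its share of MAPT reads was 13.9%, 7.90%, 6.51% and 0% in control and 20.4%, 17.0%, 19.0% and 21.9% in dox, so the dox shares all lay above the control shares. How many other transcripts have shares separated in this way was not counted. XM_005257370.4, with 25.6%, was the most even of the 3, with a log2 fold change of 0.15 (SE 0.12).

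MAP4, the broadly expressed relative of tau, was at 149, 165, 145 and 127 CPM in control and 202, 175, 166 and 141 CPM in dox. It was higher in each pair, by 1.06-fold in clone 3 to 1.36-fold in the polyclonal population, with a log2 fold change of 0.22 (SE 0.07), and 60.2% of its deposited mean was matched. MAP2, the dendritic protein, was near the floor at 0.557, 0.410, 2.03 and 1.33 CPM in control and 0.338, 0.407, 1.29 and 0.463 CPM in dox. Its log2 fold change was -0.73 (SE 0.30) on 11 to 56 reads a library, and in clone 3 the 2 cultures were all but equal. DCX, the doublecortin of migrating neurons, had 13, 6, 10 and 4 reads in control and 4, 3, 6 and 1 in dox, too few to pass the filter. MAP2 and DCX were the 2 genes with the lower CPM in the dox culture of 4 of 4 pairs. The share of all genes with that pattern was not counted, so nothing is read from it.

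**Figure D2:**
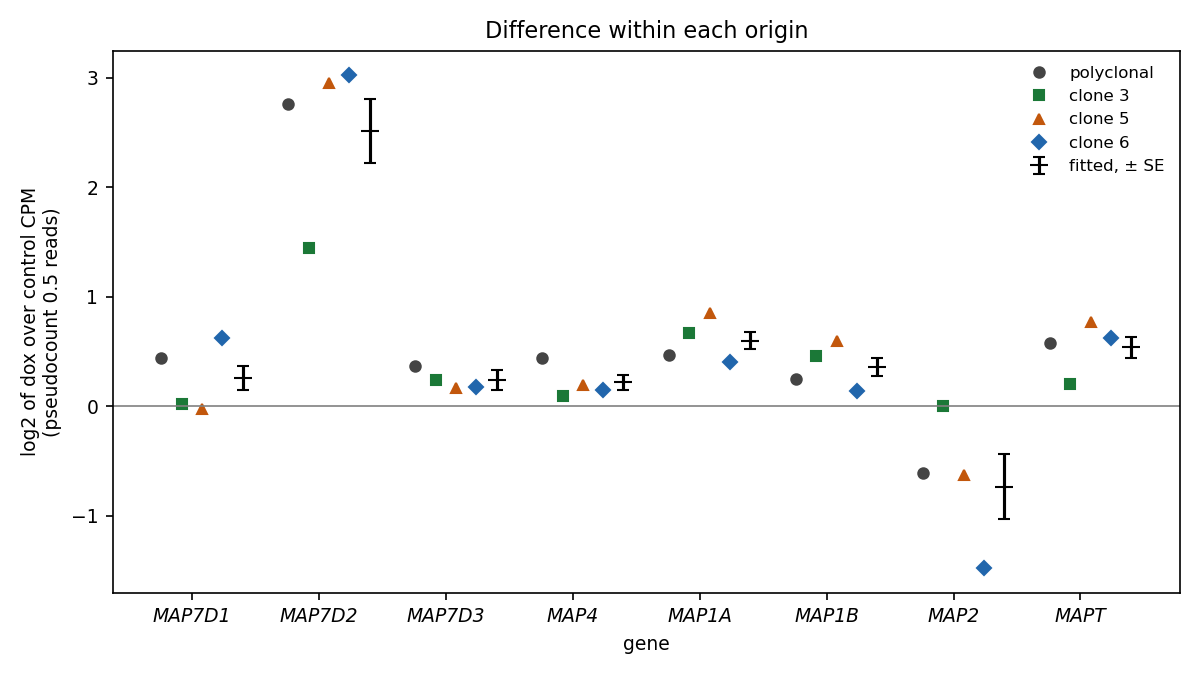
Log2 of the dox over the control level in each origin (points, with a pseudocount of 0.5 reads) for the 8 genes that passed the filter, and the fitted log2 fold change with the SE worked back from its test (black). All 4 points of MAP7D2 lie between 1.44 and 3.02, while those of MAP7D1, MAP7D3, MAP4, MAP1A, MAP1B and MAPT lie between -0.03 and 0.85, and MAP2 reaches -1.48 in clone 6.

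By transcript, the 10 genes had 0 calls. Of their 156 matched transcripts, 38 had reads and 20 could be tested, and 0% of all 49037 transcripts tested had an adjusted p under 0.05 with the origin block in edgeR (3452 at an unadjusted p under 0.05, and 3 with an adjusted p under 0.05 without the block).

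In order of level per length in the controls, MAP1A (43.3 ± 12.2 TPM), MAP4 (41.6 ± 5.31), MAP7D1 (41.3 ± 15.1) and MAP1B (37.6 ± 10.1) came first (SD, n = 4), and their ranges overlapped. MAPT followed at 16.4 ± 6.69 TPM, then MAP7D3 at 4.43 ± 0.795 TPM, and each of these was below the gene before it in 8 of 8 libraries. MAP7D2 (0.571 ± 0.415 TPM) and MAP2 (0.503 ± 0.338 TPM) overlapped in control. In dox MAP7D2 was at 3.09 ± 0.858 TPM and MAP2 at 0.371 ± 0.298 TPM, with no overlap between them. MAP7 and DCX were at 0.161 TPM or less in every library. Since the unmatched part differs between genes, this order holds for the matched transcripts.

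The differences between the 4 origins were tested with doxycycline as a term in the same fit and 2 cultures per origin. They were not used to choose the genes, but the genes were chosen with earlier results of these data known. No origin had a repeat culture within a group, so the spread between cultures of the same origin and treatment was not measured. Of the 8 genes tested, 7 differed between origins at an adjusted p under 0.05 (edgeR quasi-likelihood test), where 39.4% of all genes did. Given how the genes were chosen, that count describes them and nothing is read from it. MAPT had the clearest difference (adjusted p = 0.00138), with a mean of 32.3 CPM over both cultures of clone 5, 71.3 CPM in the polyclonal population, 81.8 CPM in clone 3 and 78.7 CPM in clone 6. Without the clone 5 cultures its adjusted p was 0.356, so the difference rests on that clone.

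MAP1A differed as well (adjusted p = 0.00203), from 222 CPM in clone 6 and 297 CPM in the polyclonal population to 375 CPM in clone 5 and 478 CPM in clone 3. MAP1B (adjusted p = 0.00576) was highest in clone 3 at 399 CPM and lowest in clone 5 at 239 CPM. MAP7D1 (adjusted p = 0.0115) was highest in clone 3 at 110 CPM and lowest in clone 6 at 59.9 CPM. These 3 genes kept an adjusted p under 0.05 when any origin was left out, the highest values being 0.0153, 0.0309 and 0.0343.

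MAP2 (adjusted p = 0.0172) was highest in clone 5 at 1.66 CPM, the clone with the least MAPT, and its adjusted p was 0.229 without clone 5. MAP7D3 (adjusted p = 0.0358) was highest in clone 3 at 15.9 CPM, and its adjusted p was 0.541 without clone 3, 0.0780 without clone 5 and 0.0617 without clone 6. MAP4 (adjusted p = 0.0471) had the narrowest spread of fitted origin levels, a log2 range of 0.38. Its adjusted p was 0.412 without clone 6 and 0.0572 without clone 5. MAP7D2 did not pass (adjusted p = 0.0939), although its fitted origin levels had a log2 range of 1.28. Its mean over both cultures ran from 3.01 CPM in clone 6 to 5.58 CPM in clone 5. For MAP7D2 the adjusted p was 0.0461 without clone 3 and 0.0460 with a filter at 1 read in any library.

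Beside the 10 genes, 118 other genes of the microtubule system were examined in 9 lists. Of these, 106 could be tested, 9 rose and 2 fell with doxycycline (10.4% called, beside 7.63% of all genes), and their median log2 fold change was 0.045. Among the beta tubulins, the building blocks of microtubules, 3 of 9 rose. TUBB4A, a neuronal beta tubulin, was at 72.4, 68.0, 77.1 and 47.6 CPM in control and 109, 103, 121 and 77.6 CPM in dox (log2 fold change 0.63, SE 0.05, adjusted p = 0.00594). TUBB2A (log2 fold change 0.44, adjusted p = 0.0136) and TUBB6 (0.24, adjusted p = 0.0424) also rose. Tubulin genes share much of their sequence, so the reads of each are an estimate of how the shared ones divide. Of the 7 alpha tubulins, 8 genes of the gamma tubulin complex and 11 kinases of microtubule-associated proteins that were tested, 0 passed in edgeR. TUBA1C was the 1 gene among them with an unadjusted p under 0.05, and DESeq2 called it with the block and 0 of them without it.

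Among the proteins that bind microtubule ends, 2 of 14 rose and 1 fell. The end-binding proteins MAPRE3 (log2 fold change 0.49, adjusted p = 0.0171) and MAPRE2 (0.35, adjusted p = 0.0324) rose, and SLAIN1, which promotes growth of plus ends, fell from 162, 236, 169 and 188 CPM in control to 103, 157, 125 and 123 CPM in dox (log2 fold change -0.57, SE 0.06, adjusted p = 0.00594). STMN3, a stathmin that binds free tubulin and promotes disassembly, was the only 1 of 11 destabilizing or severing proteins tested that passed, and it fell from 134, 136, 128 and 155 CPM to 104, 70.0, 80.4 and 101 CPM (log2 fold change -0.65, SE 0.09, adjusted p = 0.0103). The control and dox groups did not overlap for 6 of the 11 called genes of the lists (TUBB4A, TUBB2A, TUBB6, MAPRE3, SLAIN1 and STMN3). Of all genes tested, 4.94% did not overlap. The 11 were called in the same contrast, so nothing is read from that count.

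Among the tubulin modifying enzymes, 2 of 14 rose. AGTPBP1, which removes glutamates from tubulin tails, had a log2 fold change of 1.14 (adjusted p = 0.0217), with 10.6, 8.88, 6.13 and 1.37 CPM in control and 16.9, 19.4, 22.6 and 2.27 CPM in dox, so that clone 6 was far below the others in both cultures. Only 28.0% of its deposited mean was matched. TTLL7, a glutamylase that adds glutamates to beta tubulin, had a log2 fold change of 0.42 (adjusted p = 0.0438) with 56.0% matched. Of the 15 other structural microtubule-associated proteins tested, MAP1LC3B, named as a MAP1 light chain and known from autophagy, rose (0.26, adjusted p = 0.0244). Of 17 genes of kinesin-1 and cytoplasmic dynein, the motor that the MAP7 family recruits and its counterpart, DYNC1LI2 rose (0.25, adjusted p = 0.0340).

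The largest log2 fold changes in the lists that did not pass were those of KIF5A (1.45, adjusted p = 0.353), KLC3 (0.98, adjusted p = 0.587) and EML2 (-0.85, adjusted p = 0.103). KIF5A and KLC3, a heavy and a light chain of kinesin-1, were at 0 to 3.05 CPM in all libraries, and their log2 fold changes moved with the origin left out. KIF5A was at 2.41 when the polyclonal cultures were dropped and at 0.82 when clone 3 was, and KLC3 was at 1.86 with clone 6 dropped and at 0.37 with clone 3 dropped. EML2 passed without the polyclonal cultures (log2 fold change -1.22, adjusted p = 0.0336). TUBB4A and SLAIN1 passed when any origin was left out (adjusted p of 0.0127 to 0.0330 across both). STMN3 missed without clone 5 (adjusted p = 0.0513), TUBB2A missed without clone 5 and without clone 6 (0.0808 and 0.05005), and each of the other 7 called genes missed in 3 or 4 of the 4 fits without an origin, with adjusted p of up to 0.226 for TUBB6. In edgeR without the origin block 0 of the 11 passed (adjusted p of 0.238 for STMN3 to 0.981 for DYNC1LI2).

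**Figure D3:**
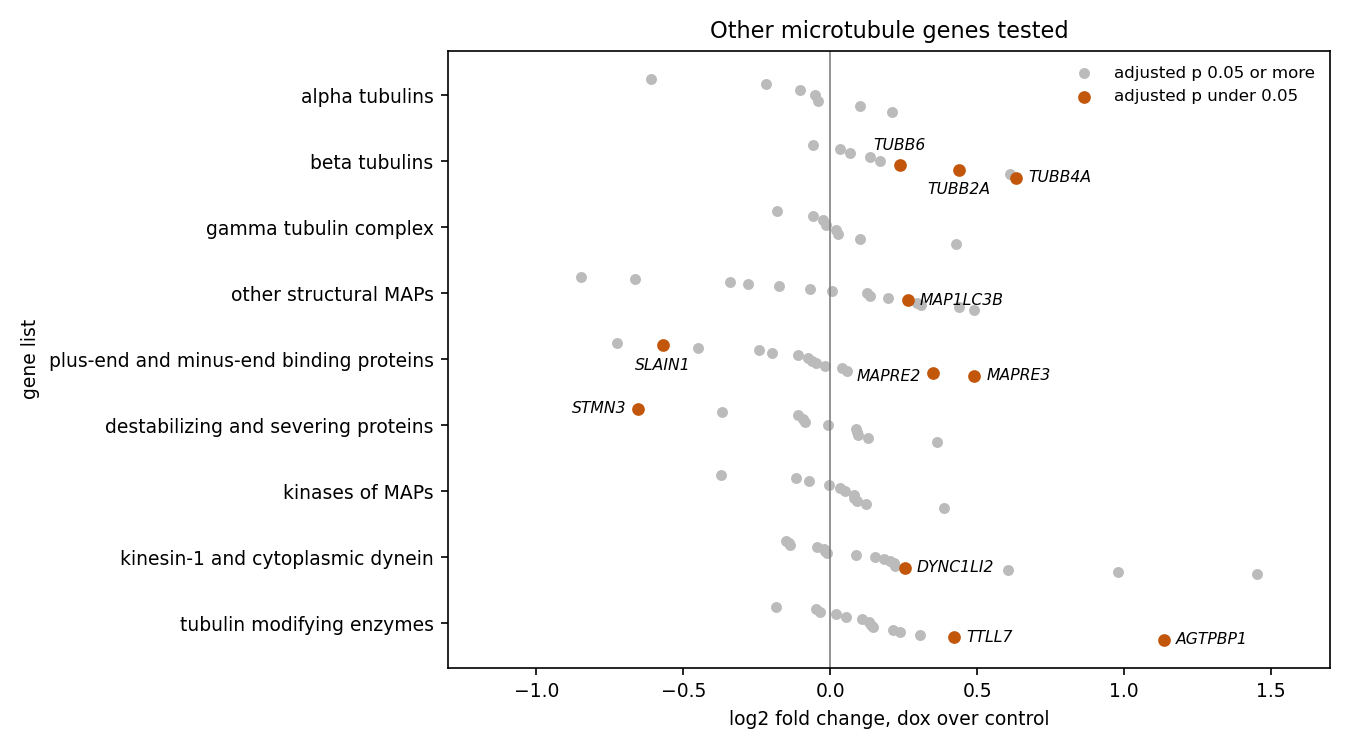
Log2 fold change of dox over control (horizontal axis) for the 106 tested genes of the 9 microtubule lists (rows), spread vertically within a list. The 11 genes with an adjusted p under 0.05 are coloured and named, with STMN3 and SLAIN1 to the left of 0 and the other 9 to the right.

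The genes whose pattern across the 8 libraries was most like that of MAP7D2 were found by the root mean square difference of log2 CPM, each gene centred on its own mean. They were LOC105371311 (0.33), CEACAM1 (0.48), CRYGS (0.51), LOC100507548 (0.51) and KASH5 (0.53). LOC100507548 and KASH5 were near the floor in control, with means of 0.152 and 0.182 CPM, and LOC105371311 had a control mean of 0.659 CPM. CEACAM1, a cell adhesion protein, was at 0.886, 1.64, 1.31 and 0.482 CPM in control and 2.64, 4.07, 9.19 and 2.36 CPM in dox. CRYGS, a crystallin, was at 0.582, 1.10, 0.726 and 0.442 CPM in control and 1.47, 3.20, 3.19 and 1.93 CPM in dox. In both, the 4 control cultures had the order seen for MAP7D2, from clone 6 at the bottom to clone 3 at the top. The genes were picked for likeness over these libraries, so nothing is read from that order. Of the 7 other microtubule-associated protein genes that passed the filter, MAP1A was the nearest to MAP7D2 by this measure (1.01) and ranked 121 among the genes tested.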

How the data were processed

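RNA of 8 cultures was sequenced by the authors with a stranded mRNA kit and quantified with Salmon on GRCh38 RefSeq transcripts. The strand setting and the RefSeq release are not given in the sources used here. Per the file headers, the deposited tables hold for each of 158867 transcripts an estimated count of reads and a TPM. A deposited DESeq2 table gives for each gene the authors' mean signal of normalized counts, used here only to see how much of a gene was matched. Its columns of fold changes and p-values were not used. The clone 5 control table has another row order and number format than the other 7, and its effect was not tested.

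Accessions without their version were matched to symbols of RefSeq on GRCh38.p14 for 72.6% of transcripts (99.2% of curated and 50.3% of predicted). Estimated counts were summed per symbol, rounded, filtered with filterByExpr, scaled by TMM and fitted with edgeR 4.0.16 in R 4.3.3 (quasi-likelihood, origin as a block, Benjamini-Hochberg over all genes, threshold 0.05). The code of the fit was run on simulated counts with planted differences. Those counts were simpler than the data, with few genes that differed between origins, so the run was a check of the code only. Deviations from the group means correlated between control and dox cultures of the same origin (0.406 to 0.590) and less between origins (-0.395 to 0.179), and the labels give both cultures the same origin. The cultures of 1 clone share their cells. With origin as a block, p-values are set against the spread of the dox to control difference between the pairs, with information shared across genes. They hold for these cultures only. The SE of a log2 fold change was worked back from the edgeR test, as its absolute value over the square root of the F statistic. DESeq2 1.42.0 was an alternative. TPM was summed per symbol and not tested.

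The 10 genes, the microtubule lists and the markers were chosen with earlier results of these data known. Named genes are the 10, FEZF1, called genes of the lists (20 at most) with the 4 largest changes, and the 5 genes most like MAP7D2. Transcripts named hold at least 5% of a gene's matched reads and a mean of 10.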

Additional observations from a re-analysis of the deposited data

Results flagged for a closer look

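In 7 of 87 groups of 4 libraries examined, 1 library stood far from the other 3, where chance alone gives about 1 in 20 (4.35 groups). Among the dox cultures, MAP2 was at 1.29 CPM in clone 5 and at 0.338 to 0.463 CPM in the others. Among the controls, MAP7D3 was at 14.6 CPM in clone 3 and at 10.2 to 10.8 CPM in the others. The MAP7D2 transcript NM_152780.4 was at 1.93 CPM in the clone 3 control and at 0 to 0.229 CPM in the other controls, and XM_024452362.1 was at 1.13 CPM in the clone 5 control and at 0.596 to 0.672 CPM in the others. KLC3 was at 0 CPM in the clone 3 control and at 0.885 to 1.06 CPM in the other controls. EML2 was at 6.9996 CPM in the polyclonal dox culture and at 1.43 to 2.19 CPM in the other dox cultures, and LOC100507548 was at 1.79 CPM in the clone 5 dox culture and at 0.522 to 0.589 CPM in the others.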

How the results depend on the processing

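Without the origin as a replicate block (no pairing), the 1221 genes called for doxycycline became 1 (1155 at an unadjusted p under 0.05), the 4 called of the 10 genes became 0 and the 11 of the microtubule lists became 0, while transcripts called went from 0 to 3. DESeq2 called 1920 genes and 17 list genes with the block, and 231 genes, 1 of the 10 (MAP7D2) and 2 list genes without it. Curated transcripts alone gave 493 genes, 2 of the 10 (MAP1A and MAPT) and 6 list genes, and 4054 genes (from 6300) and 4 of the 10 (from 7) differing between origins. Leaving out 1 origin gave 175 to 699 genes, 2 to 3 of the 10 and 3 to 6 list genes, and 0 transcripts. The lowest count of genes was without clone 5, and of the 10 genes 3 were called without clone 3 and 2 without each other origin. Between origins it gave 2970 to 5300 genes and 3 to 7 of the 10. With curated transcripts the log2 fold change of MAP7D2 moved to 4.46 and that of KASH5 to 5.23, and no log2 fold change was reversed. Reads that could not be matched limit MAP7, MAP7D1, MAP7D2, MAP7D3 and MAP4, and few reads limit MAP2, MAP7 and DCX.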
